A study of Mus musculus with 23 samples.

Results

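The NF-kB subunits and feedback inhibitors described here are 10 genes, found by their symbols in a table of 33280 genes. All 10 were present and passed the filter on low counts in every comparison. They were 5 genes of the transcription factor itself (Rela, Rel, Relb, Nfkb1 and Nfkb2) and 5 that restrain or redirect it (Nfkbia, Nfkbiz, Bcl3, Tnfaip3 and Zc3h12a). RNA was sequenced in 23 libraries of macrophages sorted from mouse brain slices without choroid plexus. All mice were Ccr2creERT2/+ R26tdT/tdT, so that tamoxifen (2 mg per day) labels cells with an active Ccr2 locus, and their progeny, with the red protein tdT. All mice received a thromboembolic stroke by thrombin injection and were sampled 1 day later. They had been given BLZ945, a CSF-1 receptor inhibitor that depletes brain macrophages (200 mg/kg for 7 days), or vehicle (CTL), 8 weeks before the stroke.

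Microglia (MG) were sorted as CD45int CD11b+ CD206- cells. Subdural CNS-associated macrophages (sdCAMs), which sit around vessels and in the leptomeninges, were sorted as CD206int-high cells and split by tdT. Per the methods of the study, cells with Ly6C, Ly6G or CD11c, surface proteins of monocytes, neutrophils and dendritic cells, were gated out. Of the 5 groups, MG and tdT- sdCAMs of either treatment had 5 libraries each, and tdT+ sdCAMs of BLZ945 mice had 3. Every group had the stroke, so an unstroked level was not measured. Replicates are named F1, F2, F3, M1 and M2, and within a treatment the same name stands for the same mouse or pool. CTL libraries came from 1 mouse each. BLZ945 libraries pooled 2 mice, apart from F2, which held 1. Treatment and pooling therefore cannot be told apart, and by the library names the F2 mouse may also be in the M1 pool. The Ccr2-driven label depends on the cells that expressed Ccr2 around the time of tamoxifen, so tdT- cells may include unlabelled descendants of monocytes.

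NF-kB is a dimer of Rel-family proteins that waits in the cytoplasm bound to an inhibitor. Signals from Toll-like, interleukin-1 and TNF receptors lead to breakdown of the inhibitor IkB-alpha, the product of Nfkbia, and the dimer moves to the nucleus. Among the genes it switches on are its own brakes. Nfkbia restores the inhibitor, Tnfaip3 encodes A20, an enzyme that edits ubiquitin chains upstream of the kinase complex, and Zc3h12a encodes Regnase-1, a nuclease that degrades cytokine messenger RNAs. Nfkbiz and Bcl3 encode nuclear IkB proteins that modify transcription at the promoter. In macrophages these genes are known for fast induction by inflammatory signals and for limiting the response that follows.

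Promoter sequence was on hand for 7 of the 10 genes (RefSeq windows on GRCm38.p6). It is shown for Nfkbia and Rel, an inhibitor and a subunit that were called lower in sdCAMs than in MG of BLZ945 mice below, while none was on hand for Nfkb1. Both genes lie on the minus strand, and the sequences run 5′ to 3′ up to the start of the gene, with the last base left out for Rel because it lies in an annotated exon (chr12:55492648-55492897 for Nfkbia, 250 bases, and chr11:23770971-23771219 for Rel, 249 bases). Capitals mark matches to GGGNNNNNCC, a loose form of the kappa-B motif, on either strand, with overlapping matches allowed.
Nfkbia: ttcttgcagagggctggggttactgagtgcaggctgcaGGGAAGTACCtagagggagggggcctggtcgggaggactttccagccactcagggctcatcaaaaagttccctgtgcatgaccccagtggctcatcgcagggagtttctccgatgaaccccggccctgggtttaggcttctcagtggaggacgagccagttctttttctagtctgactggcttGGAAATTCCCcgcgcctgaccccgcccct
Rel: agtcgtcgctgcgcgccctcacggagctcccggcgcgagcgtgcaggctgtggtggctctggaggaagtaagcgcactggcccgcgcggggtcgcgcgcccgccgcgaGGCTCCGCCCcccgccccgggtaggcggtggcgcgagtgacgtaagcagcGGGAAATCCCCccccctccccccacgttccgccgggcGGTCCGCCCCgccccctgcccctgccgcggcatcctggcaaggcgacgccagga
The Nfkbia window held 2 matches and the Rel window 5, some of them overlapping on opposite strands. The match nearest the Nfkbia start began 29 bases before it. All 7 genes with a window held at least 2 matches in the whole window. Those of Tnfaip3 and Nfkb2 lay inside the annotated gene, past its first base, and whether these bases are exon was not checked. A match was also present in 45.8% of the 32851 windows of all genes, and at least 2 in 25.5%. Counted by gene, with the best window of each, 28.0% of 27025 genes held at least 2. Matches describe letters and not bound sites, since binding was not measured here.

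Library totals lay between 9433960 and 13276081 counts, and 3 counts, the smallest level told from 0 here, equalled 0.230 to 0.331 CPM (counts scaled to library size with TMM factors). Intervals and floors of this kind cover counting error only. The lowest member value was 5 counts, for Zc3h12a in tdT+ F2, and no member was at 0 in any library. The summed level of 6 microglia markers was 17103 to 26107 CPM in MG libraries and 1152 to 2355 CPM in sdCAM libraries. The summed level of 8 border macrophage markers was 14.4 to 52.8 CPM in MG and 13254 to 19326 CPM in sdCAMs. Monocyte markers (6 genes) summed to 241.7 CPM in tdT- BLZ945 F1 and 100.2 CPM in tdT- BLZ945 M1, against 3.73 to 43.0 CPM in the other libraries. Of 5 dendritic cell markers, Cd209a made up most of the sum in tdT- cells, with means of 442.8 CPM in tdT- CTL and 86.7 CPM in tdT- BLZ945. Xcr1 was at 0 in every tdT- library, and Itgax at 0 in the 5 tdT- CTL and in 3 of 5 tdT- BLZ945 libraries. The F2 libraries of BLZ945 mice stood apart in immediate early genes, which sorting procedures are known to induce. The 17 genes of that list, among them Fos, Jun, Egr1 and Atf3, summed to 14805 CPM in MG F2, 10070 CPM in tdT- F2 and 7424 CPM in tdT+ F2, each the lowest library of its group. The tdT- CTL M2 library was also low, at 11508 CPM, against 21711 to 27944 CPM in the other 4 of its group.

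Expressed per kilobase of exon (GENCODE vM21), Nfkbia was the most abundant of the 10 in every group. Its mean was 644 and 833 CPM per kb in MG of CTL and BLZ945 mice. In sdCAMs it was 408 (tdT- of CTL mice), 529 (tdT- of BLZ945 mice) and 477 CPM per kb (tdT+). Nfkbiz had the next highest mean, from 39.3 CPM per kb in MG CTL to 75.8 in tdT+ BLZ945. Rela, the subunit with a transactivation domain in the common NF-kB dimer, had means between 31.9 and 40.8 CPM per kb. The ranges of Nfkbiz and Rela overlapped in each of the 5 groups, so no order is read between them. The other 7 genes had means between 1.57 and 14.6 CPM per kb, and many of their ranges overlapped. Rel, another subunit with a transactivation domain, had the lowest mean in all 5 groups. Its range overlapped that of Nfkb2 in each group, so these neighbours are not ordered, and it lay below that of Nfkb1 in both MG groups and in tdT+ cells. Within the 5 subunits, Rela made up 58.3% ± 4.09 (SD, n = 5) of the length-scaled RNA in MG CTL and 58.6% ± 2.00 (SD, n = 5) in MG BLZ945. For tdT- sdCAMs the share was 58.6% ± 6.47 (SD, n = 5) after vehicle but 62.2% ± 6.12 (SD, n = 5) after BLZ945. The 3 tdT+ libraries gave 72.0% ± 2.38 (SD, n = 3), from 69.6% to 74.3%. The share of Nfkb1, whose product p105 is cut to the p50 subunit, was 16.2% ± 3.69 (SD, n = 5) in MG CTL and 9.53% ± 3.21 (SD, n = 5) in tdT- CTL. Shares of a sum move together, so these are descriptions. About 18.1% of the exon bases of Nfkb2 and 6.51% of those of Bcl3 overlap genes on the opposite strand. Counting by strand was not stated, so reads of the overlapping genes cannot be told apart there.

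**Figure D1:**
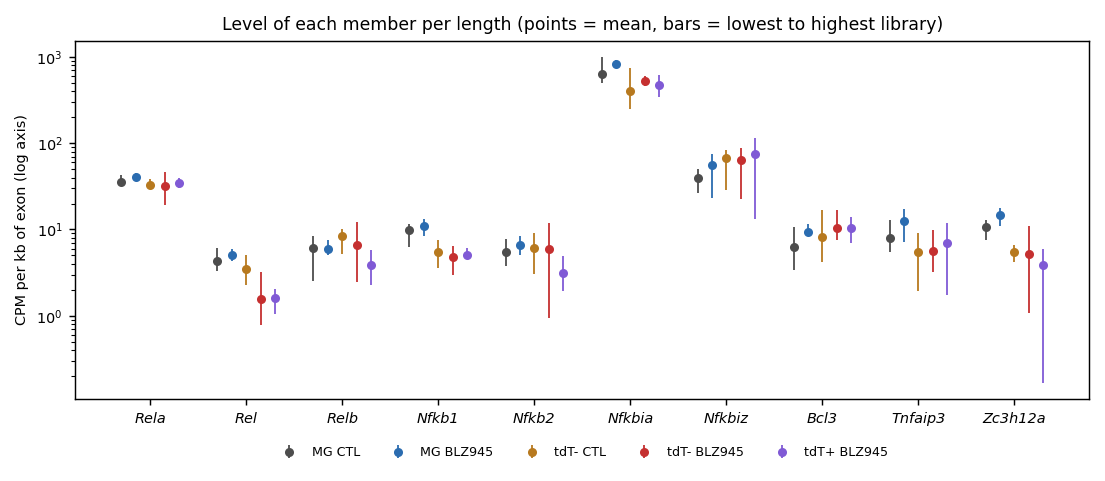
Mean level of each gene in CPM per kilobase of exon (log axis) for the 5 groups, with bars from the lowest to the highest library. Nfkbia lies highest, at 408 CPM per kb or more on average in every group, followed by Nfkbiz and Rela, and Rel has the lowest mean in each group.

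The question put to sdCAMs and MG was whether the macrophages at the brain border and in the tissue differ in these genes after stroke. They did for a subset, and each member called in the unpaired fits of all libraries of a comparison was lower in sdCAMs. MG and sdCAMs came from the same mice or pools. Nfkbiz was called higher in sdCAMs with the pairing as a replicate block in the CTL libraries alone, and in 2 fits that left libraries out, as given below. In tdT- CTL against MG CTL, edgeR's quasi-likelihood test with Benjamini-Hochberg adjustment called 2 of 10 members, Nfkb1 and Nfkbia (adjusted p under 0.05). Across all genes 25.6% were called in this comparison and 10.3% were called lower, so 2 members is a share near the background. In tdT- BLZ945 against MG BLZ945 the same test called 5 of 10 members, all lower (Nfkb1, Rel, Nfkbia, Tnfaip3 and Zc3h12a), where 32.4% of all genes were called and 14.1% called lower. In tdT+ BLZ945 against MG BLZ945 it called 3 of 10, all lower (Nfkb1, Rel and Nfkbia), where 18.9% of all genes were called and 7.05% called lower. The last 2 comparisons share the MG BLZ945 libraries and are not independent. In sorted bulk RNA, fewer cells of a type and less RNA per cell cannot be told apart.

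Nfkb1 was the subunit with the most regular difference. In MG CTL it stood at 137, 109, 139.8, 137 and 76.5 CPM (F1, F2, F3, M1 and M2) and in tdT- CTL at 45.6, 42.6, 90.9, 92.1 and 56.0 CPM. These groups overlapped only through MG CTL M2, and the level was lower in tdT- cells of all 5 mice. This gave a log2 fold change of -0.88 (SE 0.24, adjusted p = 0.00914). In MG BLZ945 the values were 131, 154, 100.3, 158 and 127 CPM, and in tdT- BLZ945 77.7, 49.3, 74.0, 54.6 and 35.6 CPM. All tdT- BLZ945 libraries lay below all MG BLZ945 libraries, with a log2 fold change of -1.19 (SE 0.24, adjusted p = 0.000666). The 3 tdT+ libraries stood at 73.7, 54.3 and 55.7 CPM (F2, F3 and M2), also below every MG BLZ945 library, with a log2 fold change of -1.12 (SE 0.25, adjusted p = 0.00574). Nfkb1 kept its call in each of the 3 comparisons under every alternative run and with each library left out.

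Rel, which encodes c-Rel, was low in sdCAMs of BLZ945 mice. It stood at 31.9, 44.3, 35.9, 38.3 and 38.7 CPM in MG BLZ945 and at 23.7, 6.16, 16.4, 5.76 and 6.51 CPM in tdT- BLZ945. The 3 tdT+ libraries stood at 12.6, 7.82 and 15.1 CPM. Neither sdCAM group overlapped with MG BLZ945, and within tdT- BLZ945 the libraries split into F1 and F3 against F2, M1 and M2. The log2 fold change against MG BLZ945 was -1.68 in tdT- cells (SE 0.36, adjusted p = 0.00097) and -1.665 in tdT+ cells (SE 0.50, adjusted p = 0.0302). The tdT+ call was lost with the replicate block (adjusted p = 0.0774), without the F2 libraries of BLZ945 mice (adjusted p = 0.0895), and in 6 of 8 fits that left out 1 library (adjusted p up to 0.113). In the CTL animals the groups overlapped, with 38.5, 24.4, 45.4, 25.6 and 28.0 CPM in MG and 29.6, 18.2, 16.8, 27.5 and 37.8 CPM in tdT- cells, and the test did not call Rel (log2 fold change -0.32, SE 0.35, adjusted p = 0.577).

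The other subunits showed no called difference between sdCAMs and MG. Rela had means of 109.7 CPM in MG CTL and 101 CPM in tdT- CTL (log2 fold change -0.12, SE 0.17, adjusted p = 0.683). In BLZ945 mice it ranged from 112 to 139.98 CPM in MG, from 59.6 to 142 CPM in tdT- and from 92.6 to 122 CPM in tdT+ cells. The log2 fold change of tdT- against MG there was -0.35 (SE 0.17, adjusted p = 0.126), and Rela was called only when tdT- BLZ945 M2, its highest library, was left out (-0.53, adjusted p = 0.0112). Relb, the partner of p52 in the alternative NF-kB pathway, ranged from 9.84 to 32.6 CPM in MG CTL and from 20.1 to 39.5 CPM in tdT- CTL (log2 fold change 0.48, SE 0.35, adjusted p = 0.368). Nfkb2, the precursor of p52, ranged from 22.9 to 38.7 CPM in MG BLZ945 and stood at 8.87, 11.6 and 22.4 CPM in tdT+ libraries. These groups did not overlap, but the difference was not called (log2 fold change -1.08, SE 0.59, adjusted p = 0.231).

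**Figure D2:**
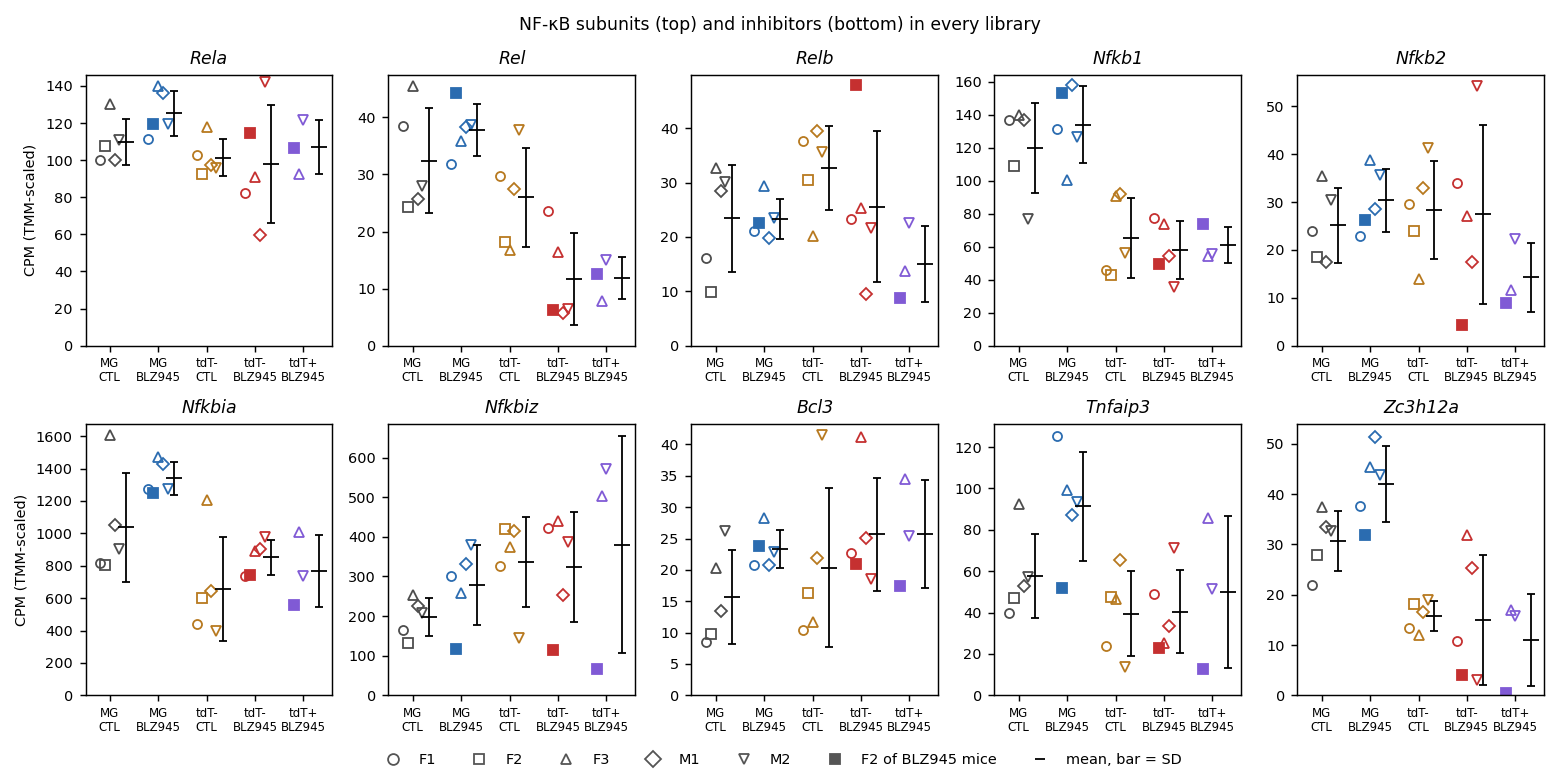
CPM of each gene in every library, by group, with the mean and SD beside the points. Symbols name the replicate and filled squares mark the F2 libraries of BLZ945 mice. Nfkb1 and Rel sit lower in sdCAMs of BLZ945 mice than in MG, and Nfkbiz and Zc3h12a are lowest in the tdT+ F2 library.

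Among the inhibitors, Nfkbia was lower in sdCAMs than in MG of the same animal in every pair. In MG CTL it stood at 815, 803, 1610.2, 1053 and 901 CPM and in tdT- CTL at 439.7, 599.7, 1204, 646 and 399 CPM. The groups overlapped because the F3 mouse was the highest in both. The ratio of tdT- to MG within a mouse was 0.539, 0.747, 0.747, 0.613 and 0.442, and the log2 fold change was -0.66 (SE 0.23, adjusted p = 0.0391). The call was lost in 6 of 10 fits that left out 1 library (MG CTL F3 or M1, or tdT- CTL F1, F2, M1 or M2), with -0.45 and an adjusted p of 0.161 without MG CTL F3, and it was kept with the replicate block. In BLZ945 mice Nfkbia stood at 1276, 1252, 1472, 1431 and 1277 CPM in MG and at 739, 743, 889, 906 and 979 CPM in tdT- cells. Here the groups did not overlap, and the ratios were 0.579, 0.594, 0.604, 0.633 and 0.767. The log2 fold change was -0.65 (SE 0.23, adjusted p = 0.0376), lost in 7 of 10 fits that left out 1 library (adjusted p up to 0.0734), with RLE size factors (adjusted p = 0.0538) and without the F2 libraries of BLZ945 mice (adjusted p = 0.0861). The tdT+ libraries stood at 559, 1007 and 737 CPM, below every MG BLZ945 library, with a log2 fold change of -0.79 (SE 0.18, adjusted p = 0.00615) that was called in all 8 fits with 1 library left out.

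Zc3h12a and Tnfaip3 were called in tdT- BLZ945 against MG BLZ945 alone. Zc3h12a stood at 37.7, 31.8, 45.4, 51.3 and 43.8 CPM in MG BLZ945 and at 10.8, 4.11, 31.9, 25.3 and 3.09 CPM in tdT- BLZ945. Each mouse or pool was lower in tdT- cells, but the ratio ran from 0.0704 to 0.702, and the groups overlapped only through tdT- F3, at 31.9 CPM, and MG F2, at 31.8 CPM. This was a log2 fold change of -1.47 (SE 0.44, adjusted p = 0.0126), and the call was lost in the model of all 23 libraries (adjusted p = 0.0535). In CTL mice Zc3h12a stood at 21.9, 27.9, 37.5, 33.3 and 32.7 CPM in MG and at 13.5, 18.1, 12.0, 16.5 and 18.9 CPM in tdT- cells. These groups did not overlap, and the log2 fold change of -0.96 (SE 0.43) missed the threshold (adjusted p = 0.113). The fit with the replicate block, which also left out all BLZ945 libraries, called it (-0.95, SE 0.21, adjusted p = 0.00611). The parts of the pairing and of the smaller set of libraries in that call cannot be told apart. The tdT+ libraries stood at 0.482, 16.9 and 15.7 CPM, all below MG BLZ945, and the log2 fold change of -1.92 (SE 0.88, adjusted p = 0.151) was called only in the model of all 23 libraries (adjusted p = 0.0454).

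Tnfaip3 stood at 125, 51.8, 99.2, 87.2 and 93.4 CPM in MG BLZ945 and at 48.8, 22.9, 25.3, 33.4 and 71.3 CPM in tdT- BLZ945. The groups overlapped through MG F2 and tdT- M2, and the level was lower in tdT- cells of each of the 5 mice or pools. It had a log2 fold change of -1.17 (SE 0.37, adjusted p = 0.0184), and the call was lost without MG BLZ945 F1 (-1.03, adjusted p = 0.0513). In the CTL mice it was -0.56 (SE 0.36, adjusted p = 0.307), with 3 of 5 mice lower in tdT- cells.

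Nfkbiz and Bcl3, the nuclear IkB genes, did not share this direction. Nfkbiz stood at 165, 132, 254, 226 and 208 CPM in MG CTL and at 328, 420.01, 375, 416 and 145 CPM in tdT- CTL. It was higher in tdT- cells of 4 of 5 mice, with M2 the exception, and the log2 fold change of 0.77 (SE 0.33) was not called (adjusted p = 0.102). The fit with the replicate block, which held the CTL libraries alone, called it (0.73, adjusted p = 0.0493). With Zc3h12a this made 4 members called in place of 2, while the share of all genes called rose to 34.3%. The fit without tdT- CTL M2 also called Nfkbiz (0.96, adjusted p = 0.0339). In BLZ945 mice Nfkbiz was higher in tdT- cells than in MG in 3 of 5 mice or pools, with ratios from 0.761 to 1.70. In tdT+ libraries Nfkbiz stood at 66.1, 502 and 572 CPM, against 301, 117, 258.2, 332 and 379.99 CPM in MG BLZ945. The log2 fold change of 0.47 (SE 0.55, adjusted p = 0.623) became 0.77 with an adjusted p of 0.0348 without the F2 libraries of BLZ945 mice. Bcl3 ranged from 8.47 to 26.3 CPM in MG CTL and from 10.4 to 41.5 CPM in tdT- CTL (log2 fold change 0.38, SE 0.36, adjusted p = 0.522). That sign turned without tdT- CTL M2 (-0.062, adjusted p = 0.934).

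Groups did not overlap for 1 member in tdT- CTL against MG CTL, where 26.8% of all genes did not overlap. The count was 3 members in tdT- BLZ945 against MG BLZ945, where the share was 22.0%, and 5 members in tdT+ BLZ945 against MG BLZ945, where it was 34.8%. The median log2 fold change of the 10 members was -0.22, -0.50 and -0.83 in these comparisons, beside medians of -0.01, -0.02 and -0.01 over all genes tested.

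**Figure D3:**
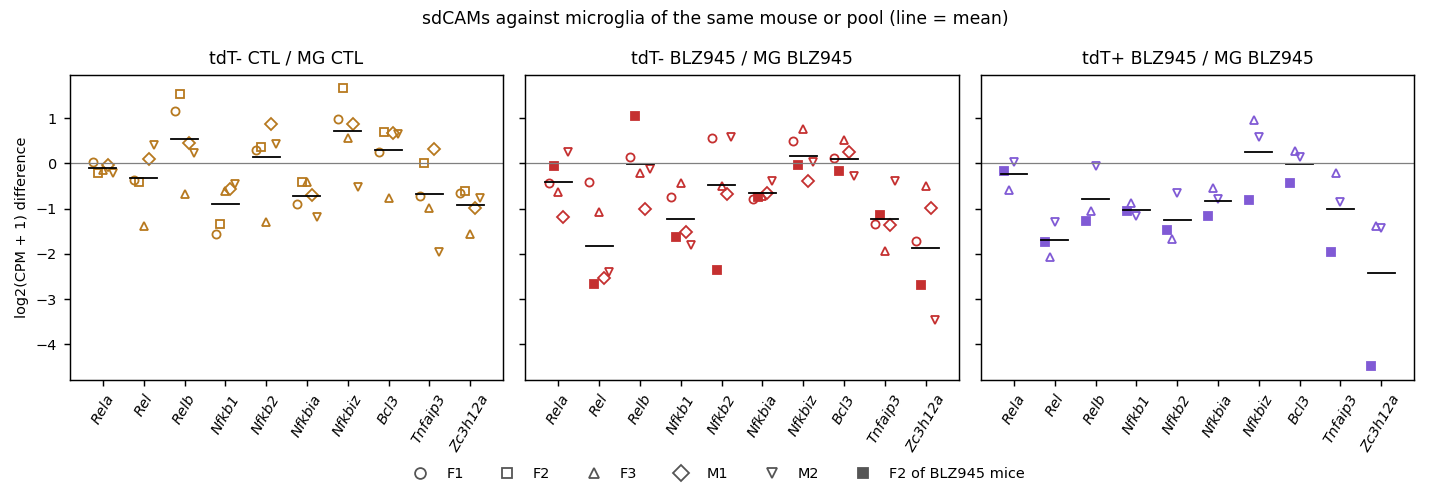
Difference in log2(CPM + 1) between sdCAMs and MG of the same mouse or pool for each gene, with a line at the mean. Nfkb1, Nfkbia and Zc3h12a lie below 0 in all 13 pairs shown, whereas Nfkbiz and Bcl3 lie on both sides.

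BLZ945 was given 8 weeks before the stroke, and the comparison with CTL asks whether microglia that repopulated the brain differ in these genes. No member was called in MG BLZ945 against MG CTL by edgeR or by DESeq2. edgeR called 0.408% of all genes and DESeq2 2.03%. At an unadjusted p under 0.05 edgeR listed 3 of 10 members, where 13.2% of all genes were listed. They were Tnfaip3, Zc3h12a and Nfkbia. Tnfaip3 stood at 39.6, 47.1, 92.4, 52.7 and 57.0 CPM in MG CTL, against the MG BLZ945 values of 51.8 to 125 CPM given above. The groups overlapped through CTL F3 and BLZ945 F2, and the log2 fold change was 0.64 (SE 0.22, adjusted p = 0.234). It passed the threshold without the filter on low counts (adjusted p = 0.0484). Zc3h12a had a log2 fold change of 0.44 (SE 0.17, adjusted p = 0.276).

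Nfkbia averaged 1037 CPM ± 336 (SD, n = 5) in microglia of CTL mice. Those of BLZ945 mice averaged 1342 CPM ± 102 (SD, n = 5). The CTL library F3, at 1610.2 CPM, lay above every BLZ945 library, and the other 4 CTL libraries lay below them all. The log2 fold change was 0.36 (SE 0.16, adjusted p = 0.357), and without CTL F3 it was 0.57 (adjusted p = 0.0394). The fold change was above 0 for 9 of 10 members, all but Relb, and the median of the 10 was 0.31 beside 0.0002 over all genes. The groups overlapped for each of the 10 members, where 3.09% of all genes did not overlap. Summed immediate early genes reached 15004 to 20284.5 CPM in MG CTL and 14805 to 22511 CPM in MG BLZ945, which overlap widely.

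In tdT- sdCAMs, edgeR called no gene of the whole table for BLZ945 against CTL (0% of 13076 genes), and DESeq2 called 0.503% of its genes and none of the members. Rel alone was listed at an unadjusted p under 0.05, where 5.33% of all genes were. Its values were the 16.8 to 37.8 CPM of tdT- CTL against the 5.76 to 23.7 CPM of tdT- BLZ945 given above. The groups overlapped through F1 of the BLZ945 mice, and the log2 fold change was -1.13 (SE 0.46, adjusted p = 0.822). The F1 library was the one with the highest monocyte markers, and leaving it out gave a log2 fold change of -1.56 (adjusted p = 0.500). Cd209a was also lower in every tdT- BLZ945 library than in every tdT- CTL library. Flt3, another dendritic cell marker, went the other way, with means of 5.16 CPM in tdT- BLZ945 and 1.41 CPM in tdT- CTL. The part of these genes in the Rel values was not tested. Cells with CD11c or Ly6C had been gated out per the study's methods, and how many such cells remained in these libraries was not tested. Nfkbia had means of 657 CPM ± 322 (SD, n = 5) in tdT- CTL and 851 CPM ± 106 (SD, n = 5) in tdT- BLZ945 (log2 fold change 0.39, SE 0.26, adjusted p = 0.998). As in MG, the CTL library F3 was far above the other 4 of its group. Without it the log2 fold change was 0.72 (adjusted p = 0.626), and without CTL M2, the lowest, it was 0.25 (adjusted p = 0.99972). For the remaining 8 members the fold change was within 1 SE of 0, and no direction is given for them. The SD in CPM was larger in tdT- BLZ945 than in tdT- CTL for Rela, Relb, Nfkb2, Nfkbiz and Zc3h12a. It was smaller for Nfkb1, Rel, Nfkbia, Bcl3 and Tnfaip3. Nfkb2 ranged from 4.33 to 54.1 CPM and Zc3h12a from 3.09 to 31.9 CPM among the 5 tdT- BLZ945 libraries, against 13.9 to 41.3 CPM and 12.0 to 18.9 CPM in tdT- CTL.

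The difference between the BLZ945 effects in tdT- sdCAMs and in MG was tested as an interaction in the 20 libraries of these 4 groups. No member was called by edgeR (0.0394% of all genes were) or by DESeq2 (0.736%). Rel alone was listed at an unadjusted p under 0.05 (8.69% of all genes were), with a log2 difference of -1.36 between the effects (SE 0.49, adjusted p = 0.409). Its mean was 32.4 CPM in MG CTL and 37.8 CPM in MG BLZ945, against 26.0 CPM in tdT- CTL and 11.7 CPM in tdT- BLZ945. A called difference of Rel between sdCAMs and MG in BLZ945 mice and none in CTL mice therefore did not amount to a called difference between the treatments.

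The tdT+ sdCAMs, the labelled progeny of Ccr2-expressing cells, were compared with tdT- cells of BLZ945 mice and with tdT- cells of CTL mice. The fits were unpaired, and 2 of the 5 tdT- BLZ945 libraries (F1 and M1) had no tdT+ partner. Against tdT- BLZ945 no member was called by edgeR (0.206% of all genes were) or by DESeq2 (1.34%), and none was listed at an unadjusted p under 0.05 (6.91% of all genes were). Relb stood at 8.78, 13.8 and 22.6 CPM in tdT+ libraries and at 23.4, 47.9, 25.4, 9.47 and 21.7 CPM in tdT- BLZ945 libraries. The groups overlapped through M1 and M2 of the tdT- cells, and the log2 fold change was -0.77 (SE 0.47, adjusted p = 0.823). Without the F2 libraries of BLZ945 mice it was -0.14 (adjusted p = 0.978). Leaving out 1 library moved it between -1.19 and -0.42. Nfkb2 had a log2 fold change of -0.96 (SE 0.61, adjusted p = 0.850), which was -0.55 without tdT- BLZ945 M2 and -1.44 without tdT+ M2. Within the 3 mice or pools that gave both populations, the ratio of tdT+ to tdT- was 0.183, 0.542 and 1.04 for Relb and 2.05, 0.427 and 0.413 for Nfkb2 (F2, F3 and M2), so neither moved one way in all 3.

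Against tdT- CTL no member was called either (edgeR called 0.283% of all genes and DESeq2 1.70%, none of them a member). Relb alone was listed at an unadjusted p under 0.05, where 7.44% of all genes were, with a log2 fold change of -1.12 (SE 0.47, adjusted p = 0.620). It stood at 37.7, 30.5, 20.1, 39.5 and 35.7 CPM in tdT- CTL. Rel was the 1 member whose groups did not overlap, where 8.16% of all genes did not, and its log2 fold change was -1.135 (SE 0.55, adjusted p = 0.682). These comparisons share the tdT+ libraries, and the preceding one shares the tdT- BLZ945 libraries with that of tdT- BLZ945 against CTL. The variation between libraries fitted by edgeR (biological coefficient of variation) was 0.704 over 13 sdCAM libraries, against 0.253 over 10 MG libraries, so differences of a given size were harder to detect in sdCAMs.

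**Figure D4:**
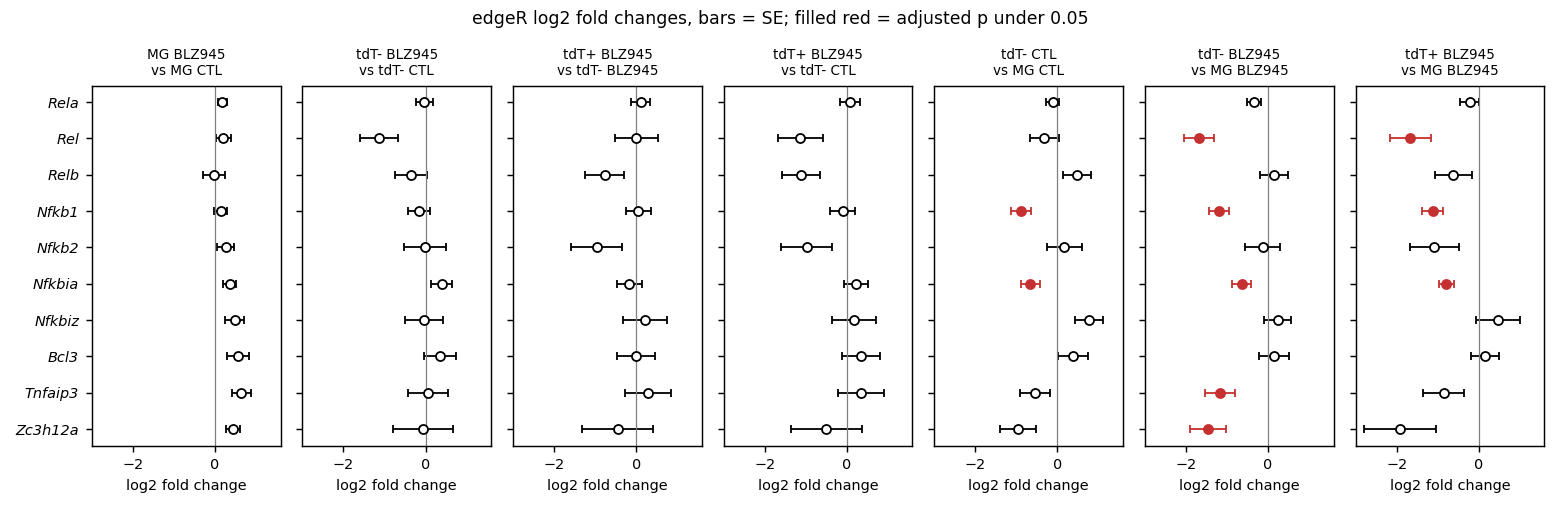
edgeR log2 fold changes of the 10 genes in 7 comparisons, with bars of 1 SE, filled red where the adjusted p was under 0.05. Calls appear only in the 3 comparisons of sdCAMs with MG (2, 5 and 3 genes), each of them below 0.

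Part of the spread between libraries was shared with the immediate early genes. In the F2 mouse given BLZ945, Nfkbiz was the lowest of its group in all 3 populations, at 117 CPM in MG, 115 CPM in tdT- and 66.1 CPM in tdT+ cells. Tnfaip3 was also lowest in all 3 of its libraries, at 51.8, 22.9 and 12.5 CPM. In tdT- CTL, the M2 library held the lowest Nfkbiz (145 CPM), the lowest Tnfaip3 (13.9 CPM) and the lowest sum of the immediate early list. After subtracting group means on the log2(CPM + 1) scale, Nfkbiz followed the mean of the 17 genes with a Pearson r of 0.97 and a Spearman rho of 0.96 over the 10 MG libraries, and the r was 0.91 without the 2 libraries farthest from the median of the early genes. Over the 10 tdT- libraries r was 0.93 and rho 0.58, but r was 0.14 without CTL M2 and BLZ945 F2, so that relation rested on those 2 libraries. Tnfaip3 gave r = 0.74 in MG and 0.66 in tdT- cells (-0.02 without the same 2 libraries). Zc3h12a gave r = 0.74 in MG (0.83 without the 2 farthest libraries) and 0.39 in tdT- cells (0.56), where it was -0.58 within CTL and 0.62 within BLZ945. Relb gave r = 0.26 in MG and -0.62 in tdT- cells (-0.37 within CTL and -0.75 within BLZ945). For Nfkbia r was 0.37 in MG and 0.56 in tdT- cells, and higher without the 2 farthest libraries, at 0.75 and 0.64. For Nfkb1 it was -0.13 and 0.34, and 0.23 and 0.77 without them. The points share library, depth and handling, and the part of the early genes in the levels above was not tested.

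**Figure D5:**
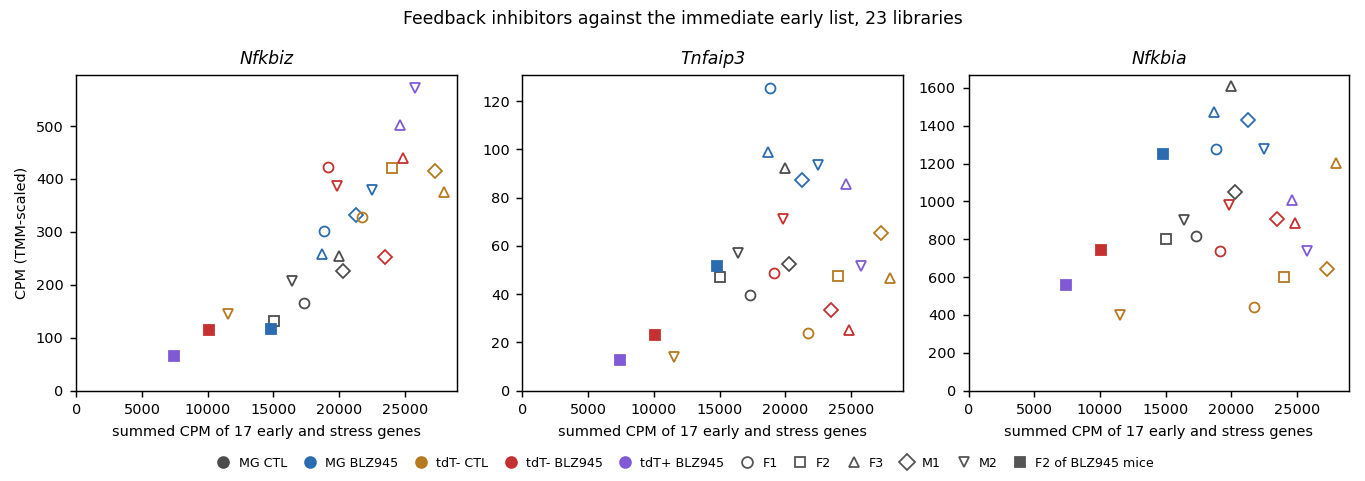
CPM of Nfkbiz, Tnfaip3 and Nfkbia against the summed CPM of 17 immediate early and stress genes in 23 libraries, coloured by group, with filled squares for the F2 libraries of BLZ945 mice. Nfkbiz is low (under 150 CPM) in the libraries with the smallest sums, whereas Nfkbia was lower in sdCAMs than in MG of each mouse or pool, with MG and sdCAM points overlapping across groups.

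The members were also compared with each other. Over the 45 pairs of members, the median r of deviations from the group mean reached 0.46 over 10 MG libraries, against 0.13 over 10 tdT- libraries. Within CTL the medians were 0.61 and -0.23, and within BLZ945 0.13 and 0.11, so the gap lay in the CTL libraries, and it was not tested. In MG the highest was Relb with Bcl3 (r = 0.81, rho = 0.88, and 0.79 and 0.96 within CTL and BLZ945). Nfkbiz with Tnfaip3 followed (r = 0.77), and this was the closest pair in tdT- cells (r = 0.71), where it fell to 0.32 without the 2 libraries farthest in Nfkbiz. In tdT- cells Rela and Zc3h12a ran opposite to each other (r = -0.81, and -0.92 and -0.81 within CTL and BLZ945). The genes most like each member in MG, among 5111 genes ranked, were Axl for Nfkbia (r = 0.92), Ythdf3 and Zfp36 for Nfkbiz (r = 0.96 and 0.95) and Hhex for Nfkb1 (r = 0.97). In tdT- cells, among 5022 genes, they were Klf4 for Nfkbia (r = 0.91), Klf6 for Nfkbiz (r = 0.95), Birc3 for Zc3h12a (r = 0.95) and Ppp6r3 for Rel (r = 0.92). With so many genes ranked over 10 libraries, high values arise for any gene, and the names are descriptions.

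Genes around the members were read from 5 lists. In MG BLZ945 against MG CTL, in the 3 comparisons among sdCAMs and in the interaction, edgeR called none of their genes. At an unadjusted p under 0.05, 13.2%, 5.33%, 6.91%, 7.44% and 8.69% of all genes were listed in these 5 comparisons. The target list had 7 of 26, 3 of 28, 2 of 28, 1 of 28 and 3 of 29 genes, and the receptors 2, 1, 2, 3 and 2 of 16. Signal transduction had 2, 1, 2, 1 and 2 of 26, signal restraint 5, 0, 1 and 0 of 17 and then 1 of 18, and the immediate early list 0 of 17 in each. DESeq2 called 2 target genes and 1 gene of signal restraint in MG, and none in the other 4. Between sdCAMs and MG, 25.6%, 32.4% and 18.9% of all genes were called (tdT- CTL, tdT- BLZ945 and tdT+ BLZ945), and the lists are read against these shares. Signal transduction (4, 7 and 2 of 26 called) and signal restraint (4, 3 and 3 of 18) lay below them in each comparison. Receptors (6, 9 and 6 of 16) and target genes (21, 22 and 13 of 29 tested) lay above, and the immediate early list (6, 8 and 3 of 17) lay above in the first 2 comparisons and below in the last. These counts are descriptions, with no test of the lists. Of the target genes, in tdT- CTL against MG CTL 8 were higher and 13 lower, in tdT- BLZ945 against MG BLZ945 8 higher and 14 lower, and in tdT+ BLZ945 against MG BLZ945 6 higher and 7 lower. The chemokine gene Cxcl1 had a mean of 49.7 CPM in tdT- CTL and 0.136 CPM in MG CTL, and the acute phase gene Saa3 had 35.7 and 0.225 CPM. The adhesion gene Vcam1 was higher in tdT- CTL (1498 against 27.6 CPM, log2 fold change 5.76, SE 0.41, adjusted p = 4.6e-10). The cytokine gene Il1a was lower (5.43 against 379 CPM, log2 fold change -6.11, SE 0.65, adjusted p = 2e-07). The targets called thus differed in both directions.

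Of 16 receptors that feed into NF-kB, 4 were higher and 2 lower in tdT- CTL against MG CTL, 3 higher and 6 lower in tdT- BLZ945 against MG BLZ945, and 2 higher and 4 lower in tdT+ BLZ945 against MG BLZ945. Ly96, the co-receptor of the endotoxin receptor, was higher in tdT- CTL (182 against 70.4 CPM, log2 fold change 1.36, SE 0.21, adjusted p = 3.15e-05). Tlr3, a receptor for double-stranded RNA, was lower (10.3 against 78.2 CPM, log2 fold change -2.92, SE 0.47, adjusted p = 5.59e-05). Tlr2, a receptor for bacterial lipoproteins, was lower in tdT- BLZ945 (218 against 495 CPM, log2 fold change -1.17, SE 0.20, adjusted p = 8.69e-05).

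Of 26 genes of signal transduction, 2 were higher and 2 lower in tdT- CTL against MG CTL, 1 higher and 6 lower in tdT- BLZ945 against MG BLZ945, and 0 higher and 2 lower in tdT+ BLZ945 against MG BLZ945. Irak2, a kinase of the interleukin-1 receptor pathway, was lower in all 3 (log2 fold change -0.87, -1.40 and -1.61, SE 0.24, 0.24 and 0.44). Malt1, the protease of the CARD-BCL10-MALT1 complex, averaged 3.699 CPM in tdT- BLZ945 and 27.6 CPM in MG BLZ945 (log2 fold change -2.88, SE 0.53, adjusted p = 0.000238). Of 18 other genes that restrain the signal, 3, 2 and 1 were higher and 1, 1 and 2 lower in the 3 comparisons. Dusp1, a phosphatase of the MAP kinases, was higher in each (means of 4013, 3654 and 4192 CPM against 992, 1499 and 1499 CPM), and it is also known as an immediate early gene. Peli1, a ubiquitin ligase, was lower in each (log2 fold change -0.42, -1.01 and -1.17, SE 0.14, 0.14 and 0.18). Of the 17 immediate early and stress genes, 5 were higher and 1 lower in tdT- CTL against MG CTL, 4 higher and 4 lower in tdT- BLZ945 and 2 higher and 1 lower in tdT+ BLZ945 against MG BLZ945. Fos, which the digestion and sorting of tissue are known to induce, averaged 8387 CPM in tdT- CTL and 2451 CPM in MG CTL.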

How the data were processed

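The authors deposited raw counts, whole reads per gene, for 23 libraries prepared with SMART-Seq mRNA LP from sorted cells. Per the labels, processing used bcl2fastq 2.20, STAR 2.7.11a, featureCounts 2.0.6 and DESeq2 1.46.0. The study's methods name mm10 or a later build, depending on when an experiment was run, and another featureCounts version than the labels. Which of these holds for this table, and whether counting used strand, is not given in the sources used here. The 10 members and the gene lists were chosen with earlier results of these data known.

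Groups were read from the sample titles. Counts were analysed in R 4.3.3 with edgeR 4.0.16 (filterByExpr, TMM, quasi-likelihood F-test, Benjamini-Hochberg adjustment over all genes tested), with adjusted p under 0.05 counted as a call. Microglia were fitted on 10 libraries, sdCAMs on 13, sdCAM tdT- against MG on 20, and tdT+ BLZ945 against MG BLZ945 on 13. DESeq2 1.42.0 was an alternative, with RLE size factors, no filter, the filter of the study, a model of all 23 libraries, a letter covariate, a replicate block and each library left out. For tdT- against MG the block fit held only the libraries of the treatment compared, and for tdT+ against tdT- BLZ945 only those groups. Leaving out the F2 libraries of BLZ945 mice was chosen after seeing the data. Library totals were 9433960 to 13276081 counts.

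CPM was computed from TMM-scaled library sizes. Lengths were exon unions of GENCODE vM21, used for levels only. Promoter windows came from RefSeq (GRCm38.p6). Correlations used log2(CPM + 1) after subtracting group means, with genes at a mean log2 CPM of at least 5 ranked for likeness, and the 3 highest per member kept. List genes were named up to 4 per list by size of change among called genes with an average log2 CPM of at least 3. Scripts were tested on simulated data. Same-numbered libraries within a treatment came from the same mouse or pool, so the block pairs them. Their deviations correlated at a mean r of 0.11 (CTL), 0.0817 (tdT- with MG, BLZ945), 0.131 (tdT+ with MG) and 0.0686 (tdT- with tdT+). Libraries of different mice that share only a name gave 0.0706 (MG CTL with MG BLZ945), -0.000649 (tdT- CTL with tdT- BLZ945) and -0.00602 (tdT- CTL with tdT+).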

Additional observations from a re-analysis of the deposited data

Results flagged for a closer look

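Of the 10 members in the 4 groups of 5 libraries (40 sets of values), 1 held a library far from the others. Bcl3, the nuclear IkB gene, stood at 41.2 CPM in tdT- BLZ945 F3, the highest of its group, where the other 4 libraries lay between 18.5 and 25.1 CPM. The gap to the nearest library was 0.711 of the group's range. Chance flags about 1 in 20 such sets.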

How the results depend on the processing

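Of 39 fold changes of members larger than their SE or called in some setting, 699 alternative values were computed, of which 665 kept their direction and side of the threshold, 25 lost the call, 8 gained it and 1 turned its sign. The turn was Bcl3 in tdT- CTL against MG CTL without tdT- CTL M2 (-0.062, with 0.64 the highest value when another library was left out), and the cause was not tested. The count of members called in MG BLZ945 against MG CTL was 0, and 1 without the filter on low counts. With the replicate block, fitted on the CTL libraries alone, 4 members were called in tdT- CTL against MG CTL in place of 2 (34.3% of all genes). With the block Rel lost its call in tdT+ BLZ945 against MG BLZ945 (2 members called in place of 3, and 15.1% of all genes). In tdT- BLZ945 against MG BLZ945 the block fit held the BLZ945 libraries alone. The count there stayed at 5 (22.5% of all genes), and the median over all genes moved to -0.17. Leaving out 1 library gave 0 to 1 members called in MG BLZ945 against MG CTL, 1 to 2 in tdT- CTL against MG CTL, 3 to 6 in tdT- BLZ945 against MG BLZ945 and 2 to 3 in tdT+ BLZ945 against MG BLZ945. Without MG BLZ945 F1 the count in tdT- BLZ945 against MG BLZ945 was 3. Across BLZ945 and CTL a shared replicate name does not mark a shared mouse, so it pairs nothing there. Depth limits Zc3h12a in tdT+ F2, where 5 counts were read.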
